A study of Caenorhabditis elegans with 16 samples.

Results

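The DBL-1 pathway sets body size in Caenorhabditis elegans, and 9 of its genes were followed through 16 RNA sequencing libraries of whole worms. They were chosen by gene name in the deposited tables, which held all 9 of them among 46904 genes: dbl-1, lon-2, sma-6, daf-4, sma-2, sma-3, sma-4, sma-9 and lon-1. All worms were N2, the standard wild-type strain, and ate HT115, an Escherichia coli strain for RNA interference by feeding. In the 9 control libraries the bacteria carried an empty vector. In the 7 atp-2 RNAi libraries they made double-stranded RNA matching atp-2, whose product is a catalytic subunit of ATP synthase in mitochondria, as the stressor in a study of neuronal genes for aversive learning and memory. At 0 hr and at 20 hr there were 3 control libraries (replicates 1, 2 and 3) and 2 atp-2 RNAi libraries (replicates 2 and 3). Single libraries of each kind were taken at 24 hr and 36 hr, and the last pair set a 48 hr control beside RNAi worms of 54 hr. Neither label nor protocol gives the age of the worms or the event from which the hours run. RNAi by feeding is not directed at a chosen tissue, and how far it reached each tissue, neurons among them, was not measured in whole worms.

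DBL-1 is a secreted signal of the bone morphogenetic protein family that is made mostly by neurons. It binds the type I receptor SMA-6 and the type II receptor DAF-4, and these activate the Smad proteins SMA-2 and SMA-3, which enter the nucleus with the common partner SMA-4. SMA-9, a large zinc finger protein related to fly Schnurri, works with the Smads. LON-2, a glypican on the cell surface, restrains the signal, and the pathway keeps down transcription of lon-1, which encodes a cysteine-rich secretory protein of the epidermis. Worms that lose a sma gene or dbl-1 are small, while worms that lose lon-1 or lon-2 are long. The receptor gene daf-4 also serves a separate branch of the same family, in which DAF-7 controls entry into the dauer larva.

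The values are TPM, the relative share of each gene in its library after correction for gene length, so levels of different genes can be set side by side. TPM keep no record of sequencing depth, which is unknown here. Changes are differences of log2(TPM + 1) between atp-2 RNAi and control, tested with limma at 0 hr and 20 hr with Benjamini-Hochberg adjustment over all genes tested. This scale understates changes of genes with low TPM. Whether replicates are separate cultures of worms is not stated, so the p-values reflect the spread among these particular libraries, which may be technical. The targeted transcript checked the labels, since atp-2 was between 110 and 136 TPM in the RNAi libraries and between 1814 and 2097 TPM in the controls at 0 hr, and at 20 hr RNAi libraries held 172 to 197 TPM and controls 1389 to 1910 TPM. Above 1 TPM there were 10619 to 13565 genes in a library.

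At 0 hr 8 of the 9 genes rose after atp-2 RNAi and none fell, while lon-2 did not pass the test. At 20 hr 7 of the 9 rose and none fell, while lon-2 and daf-4 did not pass. The median log2 change of the 9 genes was 1.24 at 0 hr and 1.66 at 20 hr, beside medians of 0.13 and 0.31 over all genes tested. These counts stand against a high background, since 43.7% of all tested genes rose and 39.6% fell at 0 hr (83.3% in all), and 47.7% rose and 40.7% fell at 20 hr (88.3% in all). In the 8 and the 7 genes that rose, every RNAi library lay above every control library of the same time. The share of all tested genes separated in this way was not counted, so the separation adds no support to the calls. On a scale set by markers of somatic tissues, described below, 3 of these rises were still called at 0 hr, against a background of 18.4% higher. On that scale none was called at 20 hr, and sma-6, sma-4, sma-9 and lon-1 were called lower, against a background of 71.9% lower.

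**Figure D1:**
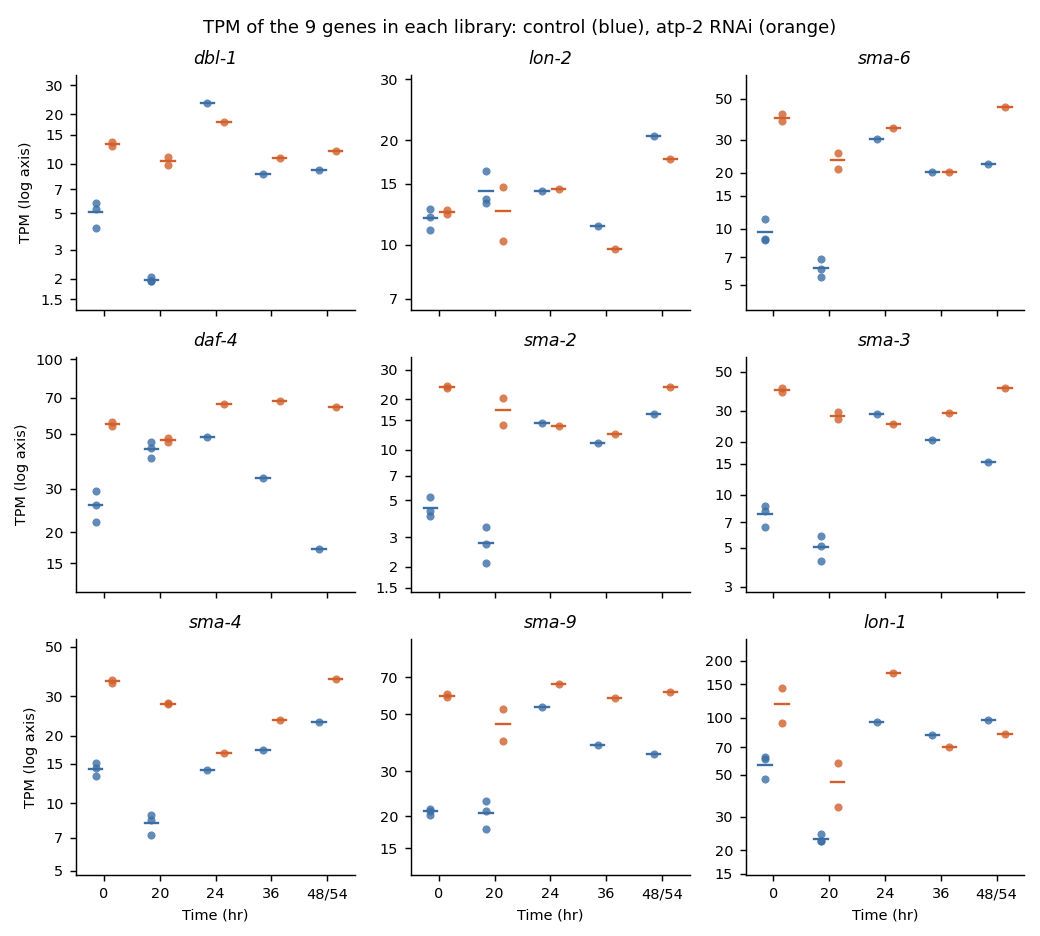
TPM (log axes) of each of the 9 genes in every library against time in hr, with control libraries in blue, atp-2 RNAi libraries in orange and a bar at each group mean. At 0 hr all genes except lon-2 are higher after RNAi; dbl-1 ranges from 1.94 TPM in a 20 hr control to 23.2 TPM in the 24 hr control.

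The ligand gene dbl-1 (WBGene00000936, chromosome V, 6758135 to 6760418, plus strand, WBcel235 as in all coordinates here) was at 4.04, 5.33 and 5.79 TPM in the 0 hr controls and at 12.8 and 13.6 TPM after RNAi. This was a change of 1.24 log2 units (SE 0.20, limma adjusted p = 0.000569), larger than the spread between replicates. At 20 hr the controls of dbl-1 were lower, at 1.94, 1.94 and 2.04 TPM, while the RNAi libraries stood at 11.01 and 9.81 TPM, a change of 1.94 log2 units (SE 0.17, limma adjusted p = 1.66e-05). Every RNAi library thus lay above every control at both times, and the controls of 20 hr lay below those of 0 hr. In the single libraries dbl-1 was at 23.2 TPM in the 24 hr control against 18.0 TPM after RNAi, and at 8.62 against 10.9 TPM at 36 hr. The 48 hr control held 9.15 TPM of dbl-1 against 11.9 TPM in the RNAi library of 54 hr. The highest dbl-1 value of all 16 libraries was therefore in a control.

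The glypican gene lon-2 (WBGene00003056, chromosome X, 4738964 to 4749083, minus strand), whose product restrains the ligand, had the smallest fitted change of the 9 genes at 0 hr and did not pass the test at either time. It was at 12.6, 12.1 and 11.1 TPM in the 0 hr controls and at 12.6 and 12.3 TPM after RNAi, a change of 0.06 log2 units (SE 0.16, limma adjusted p = 0.736). At 20 hr the controls held 16.3, 13.6 and 13.2 TPM of lon-2 and the RNAi libraries 10.3 and 14.7 TPM, a change of -0.20 log2 units (SE 0.20, limma adjusted p = 0.372). The groups overlapped at both times, and a p that misses the threshold does not show that lon-2 was the same in both. The sign of the lon-2 change turned with the scaling at 0 hr, to -0.09 on a scale that gives every library a common median, and at 20 hr it became 0.04 without RNAi replicate 2. In the single libraries lon-2 was between 9.74 and 20.6 TPM, and its log2 ratios of RNAi to control were 0.02 at 24 hr, -0.20 at 36 hr and -0.22 for 54 hr against 48 hr.

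Both receptor genes rose at 0 hr, and at 20 hr only sma-6 passed the test. The type I receptor gene sma-6 (WBGene00004860, chromosome II, 6324484 to 6327355, plus strand) was at 8.72, 8.80 and 11.3 TPM in the 0 hr controls and at 37.9 and 41.1 TPM after RNAi, a change of 1.94 log2 units (SE 0.17, limma adjusted p = 2.73e-05). At 20 hr sma-6 stood at 6.84, 5.49 and 6.03 TPM in controls and at 20.95 and 25.6 TPM after RNAi, a change of 1.77 log2 units (SE 0.18, limma adjusted p = 3.99e-05). RNAi libraries of sma-6 were thus far above all controls at both times. The type II receptor gene daf-4 (WBGene00000900, chromosome III, 5625014 to 5632322, plus strand) was at 29.4, 25.9 and 22.05 TPM in the 0 hr controls and at 53.9 and 55.9 TPM after RNAi, a change of 1.07 log2 units (SE 0.16, limma adjusted p = 0.000372). At 20 hr its controls had 46.5, 43.9 and 39.8 TPM and its RNAi libraries 48.1 and 46.4 TPM, so that the groups overlapped (log2 change 0.12, SE 0.14, limma adjusted p = 0.415). With quantile normalization, however, daf-4 was called higher at 20 hr (0.87, limma adjusted p = 0.000528), and relative to somatic markers it was called lower (-2.17, limma adjusted p = 1.32e-06). The daf-4 libraries of 0 hr and 20 hr did not overlap in either arm, with the controls higher at 20 hr and the RNAi libraries lower at 20 hr. These libraries come from separately made tables in which each library has the same total, and no test was made between tables.

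The difference between the change at 20 hr and the change at 0 hr was itself tested in a fit of all 10 libraries, in which 21.1% of 13679 genes had a higher and 21.9% a lower change at 20 hr, 43% in all. Of the 9 genes, 1 passed in each direction. For daf-4 the difference was -0.95 (SE 0.20, limma adjusted p = 0.0052), and it passed with the same sign under all 19 alternatives, with adjusted p between 0.000433 and 0.0285. For dbl-1 it was 0.70 (SE 0.24, limma adjusted p = 0.0408), but over the 19 alternatives the adjusted p ran from 0.0146 to 0.973, and the call was lost in 8 of the 10 fits that left out a library. The remaining 7 genes had differences between -0.35 (sma-9) and 0.42 (sma-4), none past the threshold on the deposited scale.

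In the controls the receptor transcripts were out of step with each other, as their ratio shows. The ratio of daf-4 to sma-6 TPM was 2.75 ± 0.729 (SD, n = 3) in the 0 hr controls and 7.13 ± 0.759 (n = 3) in the 20 hr controls. After RNAi the ratio of daf-4 to sma-6 was 1.39 ± 0.0439 (n = 2) and 2.05 ± 0.341 (n = 2), below every control library of the same time. The ratio of ligand to glypican, dbl-1 to lon-2, went the other way, at 0.428 ± 0.103 in the 0 hr controls against 1.06 ± 0.0646 after RNAi, and at 0.139 ± 0.0182 against 0.870 ± 0.288 at 20 hr. The groups did not overlap in any of these 4 comparisons, and the two-sided exact permutation test gave p = 0.2 for each, which is the smallest value that 3 against 2 libraries allow. Such ratios within a library do not depend on how libraries are scaled to each other, but they show unequal change and not which gene changed. In the 3 single pairs the daf-4 to sma-6 ratio was higher after RNAi than in the control, the reverse of 0 hr and 20 hr, with 1.90 against 1.61 at 24 hr, 3.36 against 1.64 at 36 hr and 1.42 at 54 hr against 0.768 at 48 hr. The dbl-1 to lon-2 ratio was lower after RNAi at 24 hr, at 1.24 against 1.62, and higher at 36 hr (1.12 against 0.759) and for 54 against 48 hr (0.674 against 0.444). These pairs have no replicates.

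**Figure D2:**
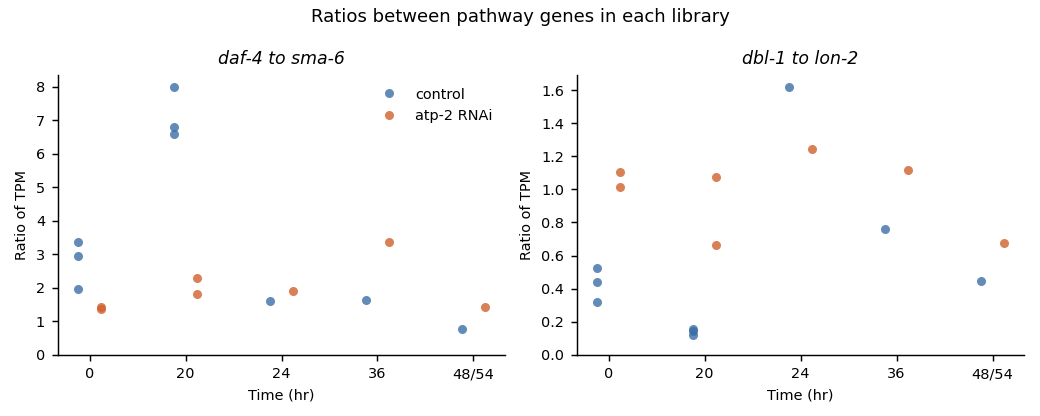
Ratio of TPM of daf-4 to sma-6 (left) and of dbl-1 to lon-2 (right) in every library against time in hr, with controls in blue and atp-2 RNAi in orange. The 20 hr controls stand apart, between 6.59 and 7.996 for daf-4 to sma-6 and between 0.119 and 0.155 for dbl-1 to lon-2.

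The genes for the receptor-activated Smads, sma-3 and sma-2, had the largest fitted changes of the 9 genes at both times. The first of them, sma-3 (WBGene00004857, chromosome III, 6860939 to 6863968, minus strand) was at 6.55, 8.61 and 8.14 TPM in the 0 hr controls and at 38.7 and 40.4 TPM after RNAi, a change of 2.22 log2 units (SE 0.17, limma adjusted p = 1.41e-05). At 20 hr sma-3 was at 5.14, 5.83 and 4.20 TPM in controls and at 26.9 and 29.5 TPM after RNAi, a change of 2.28 log2 units (SE 0.18, limma adjusted p = 1.17e-05). Larger rises than that of sma-3 were fitted for 11.4% of tested genes at 0 hr and for 18.8% at 20 hr, with falls not counted. Its partner sma-2 (WBGene00004856, chromosome III, 8749763 to 8757069, plus strand) ranged from 4.02 to 5.19 TPM in the 0 hr controls against 23.5 and 23.9 TPM after RNAi (log2 change 2.17, SE 0.18, limma adjusted p = 1.82e-05), and from 2.11 to 3.45 TPM in the 20 hr controls against 14.04 and 20.3 TPM (2.26, SE 0.24, limma adjusted p = 4.58e-05). The deposited coordinates of sma-2 overlap the genes aak-1 and tomm-70 on the opposite strand; the library kit keeps strand but the strand setting of the counting is not given in the sources used here, so reads of these neighbours in the value of sma-2 cannot be told apart. None of the other 8 genes overlaps a protein-coding gene in these coordinates.

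The common Smad gene sma-4 (WBGene00004858, chromosome III, 5816203 to 5820200, plus strand) rose less. Its controls lay between 13.3 and 15.2 TPM at 0 hr against 34.3 and 35.7 TPM after RNAi (log2 change 1.24, SE 0.14, limma adjusted p = 0.000112), and between 7.203 and 8.89 TPM at 20 hr against 27.7 and 27.9 TPM (1.66, SE 0.16, limma adjusted p = 3.38e-05). The makeup of the Smad transcripts therefore differed between RNAi and control libraries at 0 hr and 20 hr. Of the summed TPM of sma-2, sma-3 and sma-4, the share of sma-4 was 53.9% ± 1.07 (SD, n = 3) in the 0 hr controls and 35.6% ± 1.19 (n = 2) after RNAi, and 51.2% ± 1.90 against 38.1% ± 3.39 at 20 hr, with no overlap. The 24 hr control had the lowest sma-4 share, 24.6%, against 29.9% after RNAi. At 36 hr the sma-4 share was 35.5% in the control and 36.1% after RNAi. It was 42.1% in the 48 hr control and 35.95% in the 54 hr RNAi library. Summed over these Smad genes, TPM were 26.5 ± 2.24 in the 0 hr controls against 98.2 ± 0.448 after RNAi, and 16.002 ± 2.17 against 73.2 ± 6.08 at 20 hr. These shares and sums include sma-2, whose value may hold reads of its neighbours on the opposite strand.

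The cofactor gene sma-9 (WBGene00004862, chromosome X, 10769288 to 10782973, plus strand) was among the more abundant transcripts of the pathway. It lay between 20.3 and 21.4 TPM in the 0 hr controls against 58.4 and 60.1 TPM after RNAi (log2 change 1.46, SE 0.13, limma adjusted p = 2.71e-05). At 20 hr sma-9 ranged from 17.8 to 23.1 TPM in controls against 39.5 and 52.4 TPM after RNAi (1.11, SE 0.19, limma adjusted p = 0.00068).

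The target gene lon-1 (WBGene00003055, chromosome III, 5474478 to 5478005, plus strand), which the pathway is known to repress, rose in the same libraries as the ligand, the type I receptor and the Smads. It was at 62.0, 60.4 and 47.6 TPM in the 0 hr controls and at 144 and 93.9 TPM after RNAi, a change of 1.03 log2 units (SE 0.21, limma adjusted p = 0.00203). At 20 hr lon-1 was at 24.2, 22.4 and 22.3 TPM in controls and at 33.9 and 57.4 TPM after RNAi, a change of 0.91 log2 units (SE 0.22, limma adjusted p = 0.00533). Replicates of lon-1 lay further apart than those of the other 8 genes, with an SD between replicates, pooled over the groups of 0 hr and 20 hr, of 0.30 log2 units against 0.10 to 0.23. Without RNAi replicate 3 the change of lon-1 at 20 hr was 0.54 (limma adjusted p = 0.0226). With no filter on low values, which raises the number of genes tested to 46904, the lon-1 calls ended at 0 hr (limma adjusted p = 0.0626) and at 20 hr (0.085). Relative to somatic markers the change of lon-1 was 0.03 at 0 hr and not called (limma adjusted p = 0.951). At 20 hr lon-1 was called lower on that scale (-1.37, limma adjusted p = 8.92e-05). In the single libraries lon-1 had 95.3 TPM in the 24 hr control against 173 TPM after RNAi, 81.4 against 69.7 TPM at 36 hr, and 97.3 TPM in the 48 hr control against 82.6 TPM in the 54 hr RNAi library.

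Ordered by level, lon-1 led the 0 hr controls at 56.7 ± 7.85 TPM (SD, n = 3), followed by daf-4, sma-9, sma-4, lon-2, sma-6, sma-3, dbl-1 and sma-2, the last at 4.495 ± 0.615 TPM. Neighbours in this order had separate ranges except lon-2 and sma-6, and dbl-1 and sma-2, whose libraries overlapped. In the 0 hr RNAi libraries lon-1 still led at 118.8 ± 35.3 TPM (n = 2), sma-3 and sma-6 overlapped at about the same level, and lon-2 was last at 12.4 ± 0.211 TPM. In the 20 hr controls daf-4 led and dbl-1 was last at 1.97 ± 0.0596 TPM.

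Other genes of these pathways were drawn from lists written by name with earlier results of these data known, so their direction is no independent evidence. Of 14 modulators of DBL-1 signaling, 9 rose and 3 fell at 0 hr (median log2 change 0.98), and 9 rose and 4 fell at 20 hr (0.97). These shares lie close to the background of 83.3% and 88.3% of tested genes called in either direction. Of the list, tsp-12, sup-17 and unc-40 fell at both times. The tetraspanin gene tsp-12 fell from 71.1 ± 9.02 to 14.1 ± 1.14 TPM at 0 hr (log2 change -2.25, limma adjusted p = 8.96e-06) and from 114 ± 6.83 to 11.8 ± 1.12 TPM at 20 hr (-3.16, limma adjusted p = 1.09e-06). The metalloprotease gene sup-17, whose product works with such tetraspanins, fell from 98.2 ± 16.7 to 38.7 ± 2.01 TPM (-1.31) and from 193 ± 8.38 to 25.9 ± 4.23 TPM (-2.86, limma adjusted p = 1.66e-06). The netrin receptor gene unc-40, which also acts in this pathway, fell by 1.35 and 2.46. The related tetraspanin gene tsp-14 rose instead, from 7.75 ± 2.38 to 51.5 ± 11.2 TPM at 0 hr (2.60, limma adjusted p = 4.01e-05) and by 2.57 at 20 hr.

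In the dauer branch, which shares daf-4, 4 of 6 genes rose and 1 fell at 0 hr, and 4 of the 5 tested rose and 1 fell at 20 hr, against the same background of 83.3% and 88.3% called. The cofactor gene daf-5 rose from 7.54 ± 2.51 to 48.7 ± 8.45 TPM at 0 hr (log2 change 2.57, limma adjusted p = 5.29e-05), and the Smad genes daf-8 and daf-14 rose by 1.41 and 1.29. The ligand gene daf-7 fell by 0.64 at 0 hr and was under the mean of 1 TPM at 20 hr. Among the other ligand genes of the family, unc-129 rose from 3.55 ± 0.722 to 38.6 ± 1.25 TPM at 0 hr (3.13, limma adjusted p = 4.78e-06) and tig-2 rose (0.81), while tig-3 fell from 2.42 ± 0.491 to 0.0736 ± 0.0714 TPM (-1.66). All 3 kept these directions at 20 hr, with 3.22, 1.27 and -1.58.

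Genes reported elsewhere as regulated by DBL-1 rose in 5 of 8 cases and fell in 2 at 0 hr (median log2 change 4.28), and 8 of 8 rose at 20 hr (4.91). Over all tested genes 43.7% rose and 39.6% fell at 0 hr, and 47.7% rose and 40.7% fell at 20 hr. This list too was written with earlier results known, so its direction is no independent evidence. The collagen gene col-41 went from 0.0959 ± 0.0531 to 1180 ± 577 TPM at 0 hr (9.98, limma adjusted p = 2.38e-07) and rol-6, another cuticle collagen gene, from 1.78 ± 1.34 to 910 ± 402 TPM (8.40, limma adjusted p = 2.36e-06). The collagen genes col-141 and col-142, members of a large gene family whose similar copies leave their values uncertain, fell at 0 hr (-1.59 and -3.90) and rose at 20 hr (2.19 and 4.37). Collagen transcripts follow the molting cycle, and markers of the epidermis moved in the same libraries but not all one way. At 0 hr 8 of the 10 rose, from 0.63 (nhr-23) to 7.21 (dpy-7), while lin-26 fell by 0.85 and grd-5 did not pass (0.27). At 20 hr 8 rose, while lin-26 and nhr-23 fell by 2.29 and 1.66. Their part in the collagen changes was not tested.

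Marker lists of tissues also moved in these libraries, with germline markers falling and most markers of the other lists rising. Over all tested genes 43.7% rose and 39.6% fell at 0 hr, and 47.7% rose and 40.7% fell at 20 hr. All 12 germline markers fell at both times (median log2 change -4.45 at 0 hr and -4.14 at 20 hr), with summed levels between 2106 and 2550 TPM in the 0 hr controls against 109 to 111 TPM after RNAi, and between 2991 and 3898 TPM against 149 to 263 TPM at 20 hr. No germline marker was at 0 in these groups. Of 12 neuron markers 11 rose at 0 hr and 10 at 20 hr, none fell, and their summed level went from 313 to 351 TPM in controls to 1124 to 1142 TPM after RNAi at 0 hr, and from 293 to 325 TPM to 891 to 899 TPM at 20 hr. Of 10 epidermis markers 8 rose and 1 fell at 0 hr, and 8 rose and 2 fell at 20 hr, with summed levels of 320 to 358 TPM against 952 to 1329 TPM and of 255 to 259 TPM against 340 to 725 TPM. Of 10 body wall muscle markers 7 rose and 1 fell at 0 hr, and 10 rose at 20 hr, when their sum was 316 to 499 TPM in controls against 3638 to 3747 TPM after RNAi; at 0 hr it was 2009 to 3848 TPM against 4073 to 4920 TPM. Intestine markers rose in 6 and fell in 1 of 10 cases at 0 hr and rose in 8 of 10 at 20 hr, and pharynx markers rose in 6 and fell in 1 of the 8 tested at each time. Summed levels were 3133 to 6509 against 8483 to 9485 TPM and 1137 to 2452 against 8820 to 10276 TPM for intestine, and 46.2 to 63.7 against 97.4 to 109 TPM and 26.9 to 31.1 against 74.2 to 98.4 TPM for pharynx, whose marker phat-1 was at 0 in the 0 hr controls. In whole worms, fewer cells of a type and less RNA per cell cannot be told apart.

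**Figure D3:**
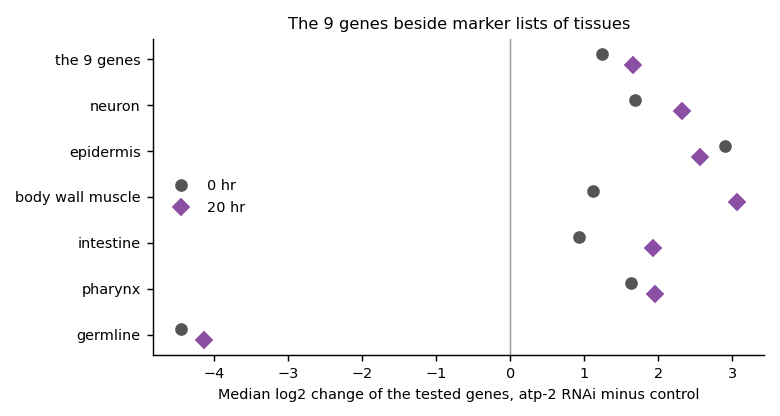
Median log2 change (atp-2 RNAi minus control, horizontal axis) of the tested genes of each list at 0 hr (circles) and 20 hr (diamonds). The 9 genes lie at 1.24 and 1.66, beside somatic lists that are all above 0 and a germline list at -4.45 and -4.14.

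The 40 tested markers of neurons, body wall muscle, intestine and pharynx had medians 1.002 log2 units higher after RNAi at 0 hr and 2.29 higher at 20 hr, whereas the median of all tested genes moved by 0.15 and 0.12. When libraries were shifted to the same median of these somatic markers, 3 of the 9 genes rose at 0 hr and 1 fell, against a background of 18.4% higher and 51.7% lower. The 3 were sma-3 (log2 change 1.21, SE 0.34, limma adjusted p = 0.00264), sma-2 (1.17, limma adjusted p = 0.00223) and sma-6 (0.94, limma adjusted p = 0.0168), and lon-2 fell by 0.94 (limma adjusted p = 0.0176). At 20 hr on that scale none rose and 6 fell, against a background of 11.3% higher and 71.9% lower. The sma-2 and sma-3 changes were then -0.03 and -0.01, dbl-1 did not pass (-0.35, limma adjusted p = 0.127), and the largest falls were those of lon-2 (-2.49) and daf-4 (-2.17). The rises of the other genes are thus changes relative to all transcripts of the worm, and relative to somatic markers they were not called at 0 hr. Of all calls, 52.5% were higher at 0 hr and 54% at 20 hr on the deposited scale, against 26.2% and 13.6% on the somatic marker scale.

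**Figure D4:**
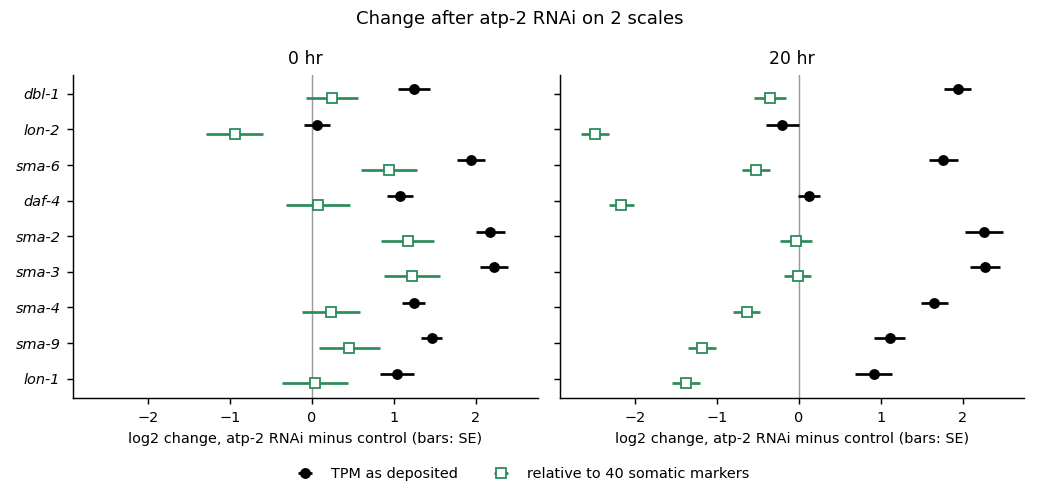
Log2 change of each of the 9 genes (atp-2 RNAi minus control, bars are SE) at 0 hr (left) and 20 hr (right), on the deposited TPM scale (filled circles) and relative to 40 somatic markers (open squares). At 0 hr sma-2, sma-3 and sma-6 stay above 0 on both scales; at 20 hr no open square lies above 0.

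The single pairs at 24 hr, 36 hr and 54 against 48 hr have no replicate check and no test. The targeted transcript atp-2 fell less in them, with 1043 TPM after RNAi against 2225 TPM at 24 hr (log2 ratio -1.09). It was at 736 against 2578 TPM at 36 hr (-1.81) and at 431 against 2607 TPM for 54 hr against 48 hr (-2.59). Its log2 changes were -4.01 at 0 hr and -3.21 at 20 hr. At 24 hr none of the 9 genes differed 2-fold (background 6.41% higher and 4.1% lower, 10.5% in all), and the largest log2 ratio was 0.86 for lon-1. At 36 hr daf-4 was past 2-fold, with 68.1 TPM after RNAi against 33.1 TPM in the control (log2 ratio 1.02; background 7.57% higher and 5.56% lower, 13.1% in all). For 54 hr against 48 hr 2 genes were past 2-fold and none below, against a background of 17.8% higher and 14.9% lower, 32.7% in all. These were daf-4, with 63.8 against 17.2 TPM (1.83), and sma-3, with 40.6 against 15.3 TPM (1.35), and sma-6 lay just under at 0.97 with 44.9 against 22.4 TPM. The daf-4 ratio at 36 hr fell below 2-fold under each of the 3 other scalings, to 0.87 with a common median. Germline markers were at least 2-fold lower after RNAi in 10 of the 11 above the mean of 1 TPM at 36 hr and in 9 of 11 for 54 against 48 hr, but in 0 of 8 at 24 hr, when their median log2 ratio was -0.43; their part in the result was not tested. In the authors' deposited table, 8 of the 9 genes had a q-value below 0.05 at 0 hr and 8 at 20 hr, and none in the 3 single pairs. The gene above that q-value in the authors' deposited table was lon-2 at 0 hr (q = 0.818) and daf-4 at 20 hr (q = 0.221). Their calls at 20 hr were not all rises, since they included lon-2 (authors' q = 0.0152), whose log2 change was -0.20 and did not pass limma. The share of all genes below 0.05 in the authors' q-values was not counted, so these counts do not set the 9 genes apart.

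Across the groups of different hours the controls varied more than the RNAi libraries. In controls 7 of the 9 genes had their lowest group mean at 20 hr, the exceptions being lon-2 (36 hr) and daf-4 (48 hr). The highest control mean was 11.8 times the lowest for dbl-1, 5.92 times for sma-2, 5.68 times for sma-3 and 4.92 times for sma-6, against 1.82 times for lon-2. Across the RNAi groups these ratios were 1.73, 1.91, 1.60, 2.21 and 1.81 in the same order, and lon-1 had the widest range, 3.79 times. These are levels set across separately made tables and are given as a description. Germline marker sums of the controls were 2106 to 2550 TPM at 0 hr and 2991 to 3898 TPM at 20 hr. They were only 73.2 TPM at 24 hr, 138 TPM at 36 hr and 297 TPM at 48 hr. Whether the libraries of 0 hr and 20 hr form a single time course with the later ones is not stated. Differences in level between hours, here and in the other sections, are therefore descriptions and are not read as changes over time. The root mean square difference over the 9 genes, on the log2(TPM + 1) scale, was 1.52 between the 0 hr RNAi group and its own control but 0.589 between that RNAi group and the 24 hr control. The 20 hr RNAi group lay 1.56 from its own control and 0.488 from the 36 hr control. None of the 9 genes was 2-fold apart in this last pairing, against 6 of 9 in the pairing with its own control. Neither the distances nor the 2-fold counts of these pairings were computed over all genes, so they do not set the 9 genes apart. The 54 hr RNAi library was nearest to the 24 hr control (0.650) and 0.919 from the 48 hr control.

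**Figure D5:**
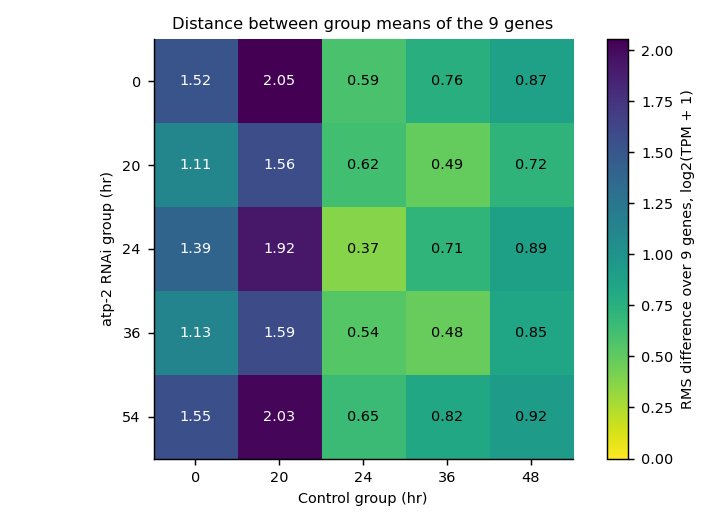
Root mean square difference over the 9 genes, in log2(TPM + 1), between the mean of each atp-2 RNAi group (rows, hr) and each control group (columns, hr). All 5 RNAi groups are nearer to the 24, 36 and 48 hr controls than to the 0 hr and 20 hr controls. The same distances were not computed over all genes.

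Among themselves the 9 genes fell into like and unlike profiles over the 10 groups, each centred on its own mean. The closest pair was sma-6 and sma-2, with a root mean square difference of 0.25, followed by sma-6 and sma-3 (0.30) and sma-2 and sma-3 (0.31), while lon-2 and sma-3 were furthest apart (0.93). Of 13750 genes compared, the profiles nearest to dbl-1 were those of sto-2, a stomatin gene (0.15), unc-36, for a calcium channel subunit (0.17), and unc-38, for an acetylcholine receptor subunit (0.18), and the nearest of the pathway, sma-6, ranked 675 (0.38). The profiles nearest to lon-1 were those of lron-11 (0.267), the histone gene his-41 (0.268), which has near-identical copies and so an uncertain value, and W09D10.5 (0.272). The nearest pathway gene to lon-1 was dbl-1, at rank 306 (0.464).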

How the data were processed

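RNA of whole worms was sequenced in 16 libraries, made with a strand-specific kit per the labels' protocols. The submitters' processing notes name TopHat, Cufflinks, bcl2fastq 2.20 and the build WBcel235; neither the program behind the TPM nor its strand setting is given in the sources used here. The deposited TPM, named so per the file headers, sum to a fixed total in each library, and a gene without signal is listed at 0.0001, which was set to 0. The authors' deposited log2 ratios were not used for any result, and their p-values and q-values, from a test not named in the file headers, only for counts of their own calls. Coordinates are those of the deposited tables; 3 of the 9 genes have the same coordinates in Ensembl release 115.

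At 0 hr and 20 hr, the test set 2 RNAi libraries against 3 controls. It used limma 3.58.1 (R 4.3.3), with an intensity trend, on log2(TPM + 1) of genes averaging 1 TPM or more in the table, and Benjamini-Hochberg adjustment at 0.05. The code was tested on simulated data. The difference between times was an interaction in a fit of 10 libraries. Single pairs were counted at 2-fold without a test. Other steps used Python 3.11.15 with scipy 1.17.1, pandas 2.3.3, matplotlib 3.10.9 and numpy 2.4.6. The members and all lists were chosen with earlier results of these data known. Named were the 9 genes, atp-2, the 2 largest changes of each of 4 pathway lists at each time, and the 3 nearest profiles of dbl-1 and lon-1; unc-40, tig-2, daf-7, col-141, col-142 and 4 epidermis markers (dpy-7, nhr-23, lin-26 and grd-5) were named after their values were seen. The alternatives tried changed the pseudocount (0.1, 0.01) or the filter (none, or 5 TPM), or used a common median, quantile normalization, a common median of somatic markers, a replicate block, all 10 libraries in 1 fit, no trend and leaving out each library. Samples were not treated as paired.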

Additional observations from a re-analysis of the deposited data

Results flagged for a closer look

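The change after atp-2 RNAi differed between 20 hr and 0 hr, by the limma interaction test, in 12 of the genes for which a change is given above. Of all 13679 genes tested, 43% passed (21.1% higher and 21.9% lower), so passing does not set these 12 apart. For the targeted gene atp-2 the fall was smaller at 20 hr, by 0.80 (adjusted p = 0.0188). For daf-4 the change at 20 hr was lower than that at 0 hr by -0.95 (adjusted p = 0.0052). For dbl-1 it was higher by 0.70 (adjusted p = 0.0408), a call that 12 of 19 alternatives did not keep. For the modulators tsp-12 and sup-17 it was lower by -0.91 (adjusted p = 0.0066) and -1.56 (adjusted p = 0.000636). For daf-4, tsp-12 and sup-17 the control means were higher at 20 hr than at 0 hr, with 43.4 against 25.8 TPM for daf-4, 114 against 71.1 TPM for tsp-12 and 193 against 98.2 TPM for sup-17, in the same control libraries whose germline marker sums were 2991 to 3898 and 2106 to 2550 TPM. The 7 others were named after their values were seen. Their differences were -1.11 for unc-40 (adjusted p = 0.0034), 1.12 for daf-7 (0.0242), 3.77 for col-141 (0.000122), 8.27 for col-142 (1.67e-05), and for the epidermis markers -1.45 for lin-26 (0.0171), -2.29 for nhr-23 (0.00465) and 1.76 for grd-5 (0.00573). The part of the germline in these differences was not tested.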

How the results depend on the processing

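On the deposited scale 8 of the 9 genes rose at 0 hr and 7 at 20 hr, none fell, and these counts stayed at 8 and 7 with each library left out in turn; of the differences, 0 to 1 were then higher and 1 lower. Relative to somatic markers 3 rose and 1 fell at 0 hr, 0 rose and 6 fell at 20 hr, and 0 differences were higher and 8 lower. Over all tested genes, 5.8% of differences were higher and 67.8% lower on that scale. That scale turned the 20 hr changes to -0.35 (dbl-1), -0.52 (sma-6), -2.17 (daf-4), -0.028 (sma-2), -0.011 (sma-3), -0.63 (sma-4), -1.18 (sma-9) and -1.37 (lon-1), the 0 hr change of lon-2 to -0.94, and the differences to -0.59 (dbl-1), -1.20 (sma-2), -1.23 (sma-3) and -0.87 (sma-4). With quantile normalization 8 genes rose at 20 hr, daf-4 among them (0.87, adjusted p = 0.000528), and 1, lon-2, fell; 0 differences were higher and 2 lower, lon-2 was -0.21 at 0 hr, and the differences were -0.013 (dbl-1), -0.68 (sma-2), -0.44 (sma-3) and 0.12 (lon-1). With a common median 0 differences were higher, lon-2 was -0.086 at 0 hr, and the differences of sma-2 and sma-3 were -0.10 and -0.12. Over all tested genes, 16% of differences were higher and 18.7% lower with quantile normalization, and 17.7% and 30.8% with a common median. With quantile normalization 42.9% of all tested genes rose and 40.5% fell at 20 hr. With no filter 0 differences were higher, against 4.72% of all genes. At 36 hr 0 genes were past 2-fold under the somatic marker, quantile and common median scalings. The cause was not tested.

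Left-out libraries turned lon-2 at 20 hr to 0.041 (RNAi replicate 2). The differences ran from -0.16 to 0.34 for sma-2, with -0.00058 without control replicate 3 of 0 hr and -0.043 without that of 20 hr, from -0.045 to 0.16 for sma-3, with -0.0092 and -0.0034 between, and from -0.49 to 0.25 for lon-1, with 0.19 between. The dbl-1 difference ran from 0.61 to 0.82, with adjusted p up to 0.121. Replicates 2 and 3 are numbered in both arms, and their deviations correlated at -0.0256 (0 hr) and -0.0337 (20 hr) across genes. With only these replicates in both arms, this cannot show whether libraries of the same number share a culture or batch. With the replicate block 8 and 7 genes rose, and the dbl-1 difference was 0.70 (adjusted p = 0.0499). TPM carry no depth, so precision rests on 2 and 3 libraries a group.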
